A study of Mus musculus with 6 samples.

Results

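The aquaporin water channels examined here are the 5 genes Aqp1, Aqp4, Aqp5, Aqp9 and Aqp11, taken from the deposited expression table as the rows that carry these symbols. All 5 had a row, among 56826 rows of which 23473 carry a gene symbol. Levels were compared between the brains of mice after transient occlusion of the middle cerebral artery and of sham-operated mice. All animals were adult male C57BL/6 mice, 8 to 9 weeks old and 22 to 25 g, anaesthetised with chloral hydrate. In the ischemia/reperfusion group (3 libraries) a silicone-coated filament blocked the artery for 60 min (1 h of ischemia) and was then withdrawn for 6 h of reperfusion. The sham group (3 libraries) had the same surgery without the filament. The labels name the tissue only as brain, with no side or region, and do not say that each library came from a separate animal, so each p-value covers the spread among these libraries alone, and that spread may be technical.

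Aquaporins are membrane channels that form tetramers, in which each subunit conducts water along an osmotic gradient. Aqp4 is the main water channel of the brain and is concentrated in astrocyte endfeet around vessels, where the dystrophin complex anchors it. It is studied in stroke because water enters the swollen tissue through these endfeet. Aqp1 sits in the apical membrane of the choroid plexus, which secretes cerebrospinal fluid, and in red cells. Aqp9 also passes glycerol and other small solutes, Aqp5 is best known from glands and lung, and Aqp11 is an unorthodox member found largely in intracellular membranes.

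Each library held 45.4 to 49.7 times 1e6 counts, and 40170 rows passed the low-count filter and were tested. Neuron markers were abundant in each library, with Snap25, a synaptic vesicle fusion protein, at 1019 to 1288 CPM (the count divided by the library's total and multiplied by 1e6). Ischemia/reperfusion replicate 2 stood apart in its choroid plexus and ependymal markers. Its 10 choroid plexus markers summed to 25.2 CPM, against 433 to 1231 CPM in the other 5 libraries, and its 6 ependymal markers were each the lowest of the 6 libraries. The sum is mostly Ttr, at 7.24 CPM in this library and 382 to 1132 CPM in the others. Ischemia/reperfusion replicate 3 had the highest sums of both lists, 1231 CPM for choroid plexus and 31.0 CPM for ependymal markers. Results of the aquaporins, and list counts or medians that moved with ischemia/reperfusion replicate 2, are given with and without that library.

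None of the 4 members that passed the filter reached an adjusted p of 0.05 (edgeR quasi-likelihood test, Benjamini-Hochberg over all rows), a threshold that 0.00249% of rows passed in either direction. DESeq2 called 0 of the 4 as well, and 1.80% of the rows for which it gave an adjusted p. Before adjustment its p was 0.0409 for Aqp4 and 0.0386 for Aqp11. At an unadjusted p under 0.05 in edgeR, 1 of the 4 was lower, Aqp11, where 6.90% of rows were lower. None of the 4 was higher at that level, where 8.73% of rows were. Groups did not overlap for 1 of the 4, Aqp9, which was higher, as were 14.0% of rows tested, and none of the 4 was separate and lower, as were 6.99%. In either direction 20.9% of rows had groups that did not overlap, and 15.6% had an unadjusted p under 0.05 (edgeR). A median log2 fold change over these members is not informative, since it was −0.20 with all libraries and 0.13 without ischemia/reperfusion replicate 2. Over all rows tested it was 0.02.

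**Figure D1:**
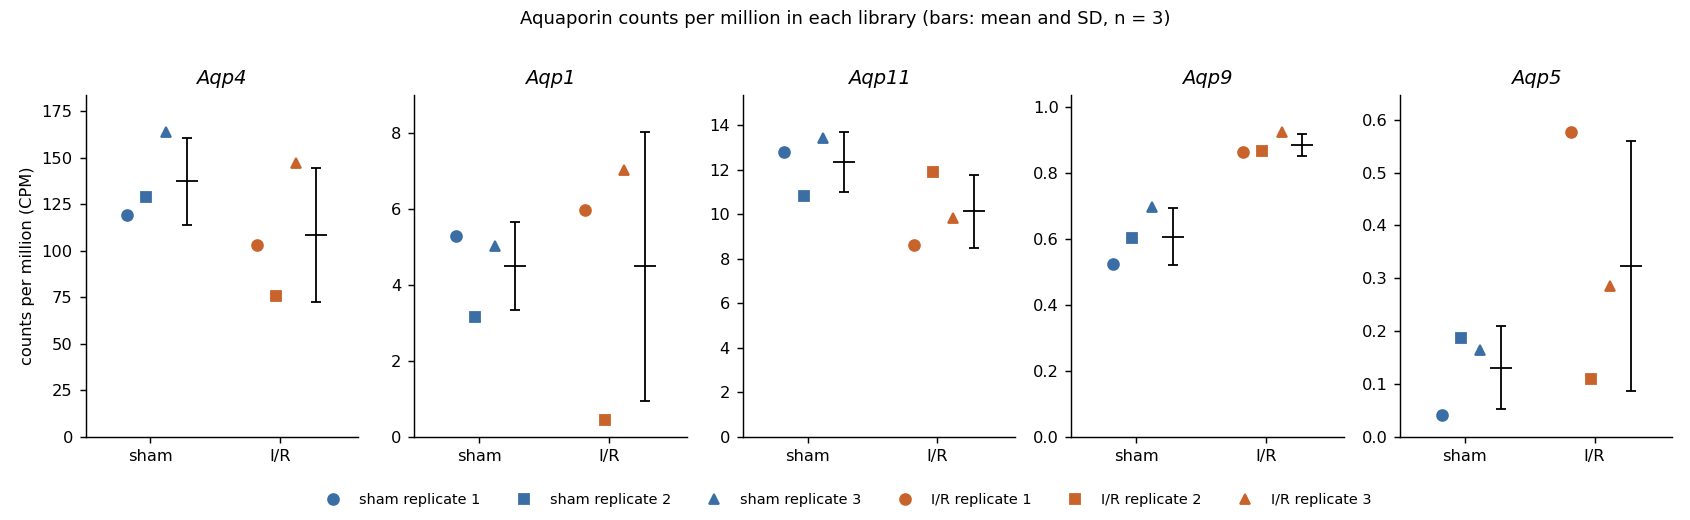
CPM of the 5 aquaporins (vertical axes, each from 0) in 3 sham and 3 ischemia/reperfusion (I/R) libraries; the horizontal mark and bar beside the points give the mean and SD. The groups are separate in Aqp9 alone, and I/R replicate 2 is far below the other libraries in Aqp1.

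Levels of different genes were compared per transcript length, as RPKM (the CPM divided by the length of the row in kilobases). Aqp4 was the highest in all 6 libraries, followed in all 6 by Aqp11. Aqp4 made up 61.0 to 73.4% of the RPKM summed over the 5 genes and Aqp11 18.9 to 36.9%. Mean RPKM in sham was 27.0 ± 4.63 for Aqp4, 9.32 ± 1.05 for Aqp11, 1.63 ± 0.422 for Aqp1, 0.195 ± 0.0277 for Aqp9 and 0.0840 ± 0.0508 for Aqp5 (SD, n = 3). In ischemia/reperfusion it was 21.3 ± 7.10, 7.64 ± 1.24, 1.63 ± 1.29, 0.284 ± 0.0109 and 0.209 ± 0.152 (SD, n = 3). The first 3 places did not overlap within sham. Below them the order was not fixed. Aqp1 was below Aqp9 in ischemia/reperfusion replicate 2, and Aqp5 was above Aqp9 in ischemia/reperfusion replicate 1. Aqp4 stood above 88.9% of the gene-symbol rows in mean RPKM, Aqp11 above 71.3%, Aqp1 above 47.7%, Aqp9 above 32.8% and Aqp5 above 29.8%.

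**Figure D2:**
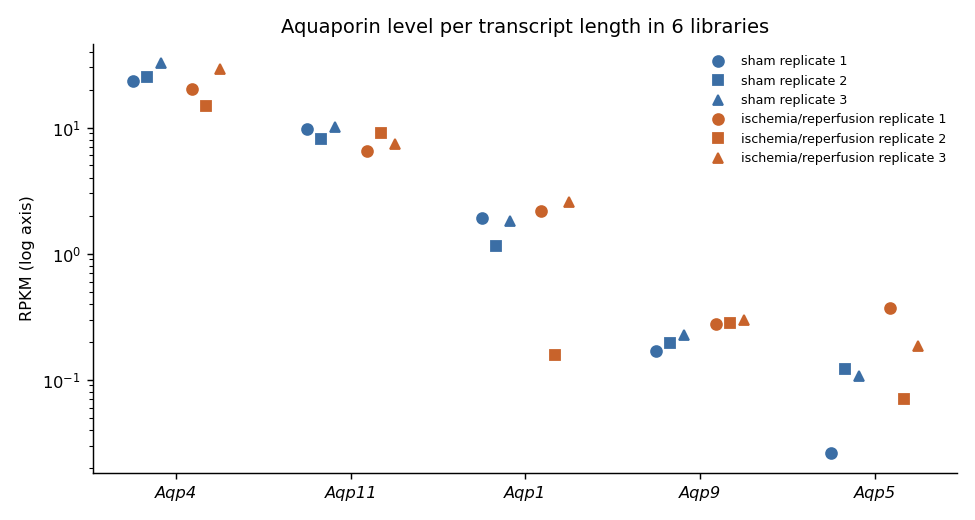
RPKM (log axis) of each aquaporin in the 6 libraries, sham in blue and ischemia/reperfusion in orange. Aqp4 lies between 14.8 and 32.2 RPKM and Aqp11 between 6.53 and 10.1, while the ranges of Aqp1, Aqp9 and Aqp5 meet.

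Aqp4, the endfoot water channel of astrocytes, was lower on average after ischemia and reperfusion, by less than the spread between libraries. Its row lies on chromosome 18 from 15389394 to 15403684 (mm10, minus strand). It had 119, 129 and 164 CPM in sham replicates 1 to 3, then 103, 75.4 and 147 CPM in ischemia/reperfusion replicates 1 to 3. The groups overlapped, because ischemia/reperfusion replicate 3 lay above sham replicates 1 and 2. Means were 137 ± 23.5 and 108 ± 36.1 CPM (SD, n = 3 each), a ratio of 0.791. The fitted log2 fold change was −0.40 ± 0.24 (SE), with a 95% interval from −0.95 to 0.16, an unadjusted p of 0.134 and an adjusted p of 0.455 (edgeR). The interval runs from 0.517-fold to 1.11-fold of sham. Without ischemia/reperfusion replicate 2, the lowest library, the log2 fold change was −0.20, with an unadjusted p of 0.289 (edgeR). Without replicate 3, the highest of that group, it was −0.68, with an unadjusted p of 0.00184 and an adjusted p of 0.369 (edgeR). When each of the other libraries was left out, the unadjusted p was 0.0962 to 0.302 (edgeR). With the replicate number as a block the unadjusted p was 0.00862 and the adjusted p 0.252 (edgeR). The replicate numbers were not taken as pairs. In bulk tissue, fewer astrocytes and less Aqp4 RNA per astrocyte cannot be told apart. The spread of Aqp4 was 14.0 times what counting alone gives in sham and 23.7 times in ischemia/reperfusion, so depth does not limit it.

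Of 11 other astrocyte markers 8 were negative and 3 positive. At an unadjusted p under 0.05 (edgeR) 5 were lower, where 6.90% of rows were, and 0 higher. Groups of 4 did not overlap, all lower, as in 6.99% of rows. The median log2 fold change was −0.27, and −0.18 without ischemia/reperfusion replicate 2. The positive ones were Sox9, a glial transcription factor, at 0.35, Gfap, the intermediate filament of astrocytes, at 0.14, and Slc1a2, a glutamate transporter, at 0.01, none with an unadjusted p under 0.05. The list had been seen to be lower in these data before, so its direction is no independent result. Gjb6, the gap junction protein connexin 30, had 104, 111 and 107 CPM in the sham libraries, then 87.6, 60.7 and 66.7 CPM after ischemia/reperfusion. Aldoc, the aldolase of astrocytes, had 830, 850 and 709 CPM and then 696, 624 and 583 CPM. Both separated the groups, as Aqp4 did not. Of the 11 markers 5 were lowest in ischemia/reperfusion replicate 2, as Aqp4 was. Ischemia/reperfusion replicate 3 was the lowest library for Aldoc, Slc1a3 and Fgfr3, and the second highest for Aqp4. Relative to the mean log2 level of the 11 markers, Aqp4 was at −0.72, −0.69 and −0.29 in the sham libraries, then −0.91, −1.16 and −0.26 after ischemia/reperfusion, so the groups overlapped on this scale too. The markers summed to 5607 to 5743 CPM in sham and 4866 to 5446 CPM in ischemia/reperfusion. Their part in the level of Aqp4 was not tested.

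The genes that hold Aqp4 at the endfoot were centred near 0 as a list. Of 13 genes of the dystrophin complex and the laminin sheet it binds, 0 had an unadjusted p under 0.05 (edgeR), as 15.6% of rows did. Of the 13, 9 were positive and 4 negative, and their median on the log2 scale was 0.05. Dtna, alpha-dystrobrevin, and Utrn, utrophin, were the 2 of 13 whose groups did not overlap, both higher, as were 14.0% of rows tested. Their log2 fold changes were 0.09 ± 0.09 and 0.18 ± 0.11 (SE). Agrn, agrin of the basement membrane, had the smallest p of the list, 0.0996 before adjustment and 0.407 after it (edgeR).

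Endfoot membrane proteins that work beside Aqp4 had differences of either sign. Of 9 tested, 1 was lower at an unadjusted p under 0.05 (edgeR), where 6.90% of rows were, and 0 higher. The median log2 fold change was −0.08, or −0.13 without ischemia/reperfusion replicate 2. The lower one was Gjb6, with a fitted log2 difference of −0.64 ± 0.13 (SE) and an adjusted p of 0.139 (edgeR), while DESeq2 called it at an adjusted p of 0.00318. Gja1, connexin 43, had −0.21 ± 0.10, and Hepacam, the adhesion protein GlialCAM, 0.22 ± 0.10, with groups that did not overlap and an adjusted p of 0.335 (edgeR). Kcnj10, the potassium channel Kir4.1, had 60.5, 51.3 and 81.5 CPM in the sham libraries, then 46.1, 70.9 and 104 CPM after ischemia/reperfusion. It was near its sham mean in ischemia/reperfusion replicate 2, where Aqp4 was at its lowest. Trpv4, an osmosensitive calcium channel, had 2.48, 2.87 and 2.21 CPM and then 2.02, 1.34 and 2.80 CPM. It was also lowest in ischemia/reperfusion replicate 2, as were Gjb6, Gja1 and Mlc1. Kcnj10, Hepacam, Clcn2, Abcc8 and Trpm4 were lowest in other libraries.

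**Figure D3:**
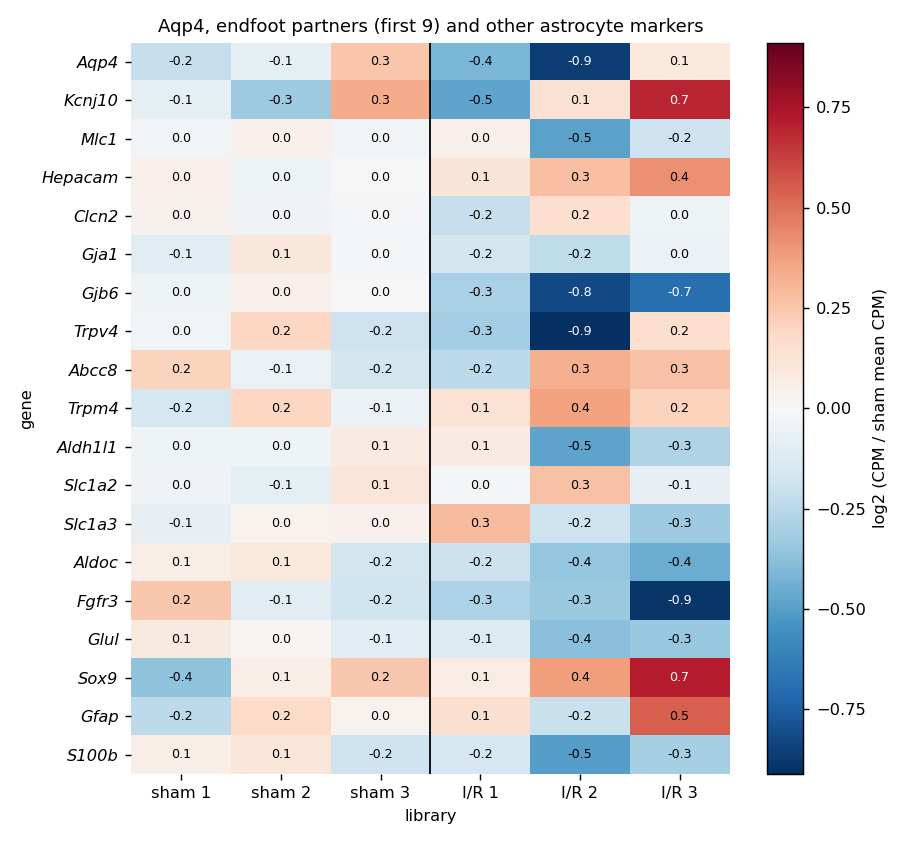
Log2 ratio of CPM to the sham mean (colour and printed value) for Aqp4, 9 endfoot partners and the remaining astrocyte markers in each library. Aqp4 is low in I/R replicates 1 and 2 and near the sham mean in replicate 3, whereas Gjb6 is low in all 3 I/R libraries.

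A single cDNA clone row, fantom3_B830011G18, overlapped the Aqp4 row, by 598 bases at its 5′ side and on the opposite strand. It had 20, 24 and 29 counts in the sham libraries, then 30, 22 and 36 counts after ischemia/reperfusion, so few of the 3478 to 7997 counts of Aqp4 could be involved. The nearest gene rows were Chst9, 48.5 kb away, and Kctd1, 238 kb away. Kctd1 differed by −0.04 ± 0.13 (log2 fold change, SE). The gene ID printed beside Aqp4 in the deposited table is not the ID of Aqp4 in the RefSeq table, although symbol and start position match, and the RefSeq gene runs on to 15410982.

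Aqp1, the channel of the choroid plexus, had nearly the same mean in both groups, 4.50 ± 1.17 and 4.49 ± 3.55 CPM (SD, n = 3 each), and was very low in 1 ischemia/reperfusion library. Its row is on chromosome 6 from 55336299 to 55348555 (mm10, plus strand). It had 5.29, 3.16 and 5.03 CPM in the sham libraries, then 5.99, 0.434 and 7.04 CPM after ischemia/reperfusion. The value of 0.434 rests on 20 counts, with an exact 95% Poisson interval of 0.265 to 0.670 CPM that covers counting error only. It was 7.28 times below the lowest of the other 5 libraries. The log2 fold change was −0.06 ± 0.91 (SE), with a 95% interval from −2.47 to 2.34 and an adjusted p of 0.979 (edgeR). Without ischemia/reperfusion replicate 2 it was 0.47, with an unadjusted p of 0.0554 and an adjusted p of 0.335 (edgeR). The other 2 ischemia/reperfusion libraries both lay above every sham library.

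Choroid plexus markers were low in the same library. Of 10 markers, 9 were lowest there. Ttr, transthyretin, the main secreted protein of the choroid plexus, had 564, 511 and 709 CPM in the sham libraries, then 382, 7.24 and 1132 CPM after ischemia/reperfusion. Folr1, a folate receptor, had 5.60, 4.59 and 7.55 CPM and then 3.99, 0.304 and 9.40 CPM. Clic6, a chloride channel protein, had 15.4, 11.0 and 17.0 CPM and then 16.8, 1.19 and 25.2 CPM. The mean of the other 5 libraries was 91.1 times the value of ischemia/reperfusion replicate 2 for Ttr, 20.5 times for Folr1, 14.3 times for Clic6 and 12.2 times for Aqp1. It was 10.6 times for Slc4a5, 6.47 times for Kcne2 and 1.71 to 3.23 times for the other 5 markers. Otx2, a transcription factor of choroid plexus and other cells, was the marker that was not lowest there. None of the 10 was at 0 in any library. Summed over the list, markers had 564 to 783 CPM in sham and 25.2 to 1231 CPM in ischemia/reperfusion. The part of choroid plexus content in the level of Aqp1 was not tested.

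Aqp1 was not in a fixed ratio to Folr1 or Ttr over the libraries. Clic6 had a Pearson correlation of 0.99 with Aqp1 in log2 CPM over the 6 libraries. It was picked by this correlation, as 1 of the 3 nearest among 14451 genes, so its closeness is no test. Both genes were lowest in ischemia/reperfusion replicate 2, at 0.434 CPM for Aqp1 and 1.19 CPM for Clic6. The correlation without that library was not taken. Ratios of Aqp1 to further markers were not taken. The log2 ratio of Aqp1 to Folr1 was −0.08, −0.54 and −0.58 in the sham libraries, then 0.58, 0.51 and −0.42 after ischemia/reperfusion, and that of Aqp1 to Ttr was −7.34 to −6.73 in the sham libraries, then −5.99, −4.06 and −7.33 after ischemia/reperfusion. In ischemia/reperfusion replicate 1 Ttr was below every sham library while Aqp1 was above every one. Of the choroid plexus list, 1 of 10 was lower at an unadjusted p under 0.05 (edgeR), where 6.90% of rows were. This was the potassium channel gene Kcnj13, with a fitted log2 difference of −1.01 ± 0.35 (SE, adjusted p = 0.248, edgeR). DESeq2 called it at an adjusted p of 0.0436. The median log2 fold change of the list was −0.26, and 0.20 without ischemia/reperfusion replicate 2. Of the libraries then left in that group, replicate 1 summed to 433 CPM and replicate 3 to 1231 CPM. Ependymal markers, from the cells that line the ventricles, summed to 14.1 to 19.6 CPM in the sham libraries. After ischemia/reperfusion they summed to 18.3, 9.69 and 31.0 CPM. Of these markers 0 of 6 had an unadjusted p under 0.05 (edgeR), as 15.6% of rows did in either direction. Their median log2 fold change was −0.04. The median was 0.28 without ischemia/reperfusion replicate 2, and 1 was then higher at an unadjusted p under 0.05 (edgeR), where 7.93% of rows were. This was Foxj1, the transcription factor of motile cilia, at 0.62 (unadjusted p = 0.0378, edgeR). It had 6.66 to 8.64 CPM in sham, then 8.98 and 16.7 CPM in ischemia/reperfusion replicates 1 and 3.

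**Figure D4:**
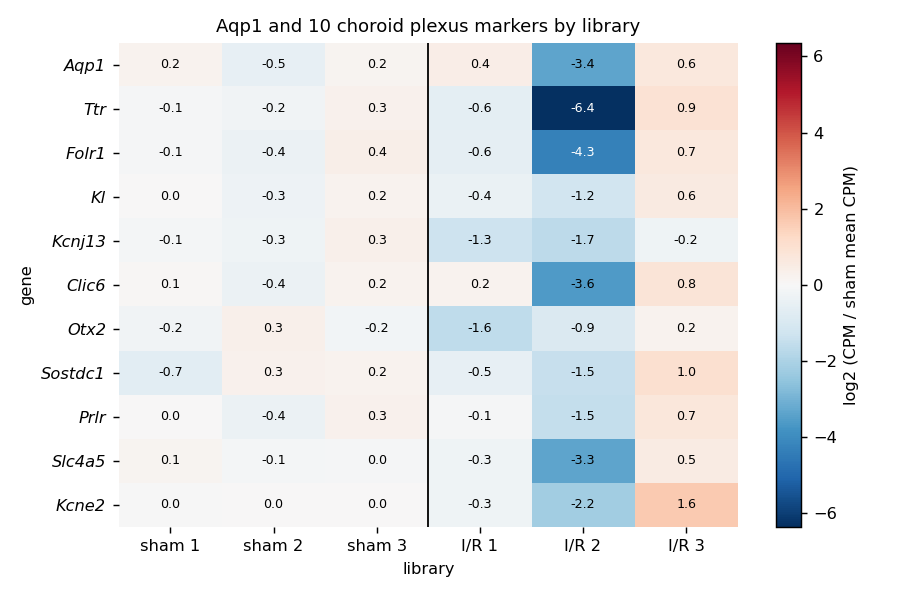
Log2 ratio of CPM to the sham mean (colour and printed value) for Aqp1 and 10 choroid plexus markers in each library. I/R replicate 2 is below 0 in all 11 rows, and Ttr, Folr1, Clic6, Aqp1 and Slc4a5 are the lowest there.

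Aqp1 is also the water channel of red cells, whose markers had another order of libraries. Erythroid transcripts summed to 142, 104 and 86.6 CPM in the sham libraries, then 126, 200 and 124 CPM after ischemia/reperfusion, highest in the library where Aqp1 was lowest. Of the list, 6 of 7 genes had a row and 4 were tested, all positive, with a median log2 fold change of 0.31. Of the 4, 0 had an unadjusted p under 0.05 (edgeR), as 15.6% of rows did in either direction. The median was 0.06 without ischemia/reperfusion replicate 2, with Hbb-bt, a beta globin, at −0.01 and Alas2, the first enzyme of heme synthesis in red cells, at −0.14. Hba-a1 and Hba-a2 share most of their reads, so they are not separate members. The part of red cell content in the level of Aqp1 was not tested. Endothelial markers summed to 122 to 168 CPM in sham and 146 to 171 CPM in ischemia/reperfusion. Among these 7 genes 2 were higher at an unadjusted p under 0.05 (edgeR), where 8.73% of rows were. They were the vascular receptors Kdr and Tie1, with log2 fold changes of 0.57 ± 0.21 and 0.67 ± 0.27 (SE). Only 1 was higher without ischemia/reperfusion replicate 2, Kdr, where 7.93% of rows were. The junction proteins Pecam1 and Cldn5 had 0.02 and −0.03, the receptor Tek 0.02, and the list's median was 0.16.

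Aqp9, the channel for water, glycerol and small solutes, was the member whose groups did not overlap. Its row is on chromosome 9 from 71110659 to 71163289 (mm10, minus strand). RefSeq places start sites at the row's end and further inside it. The windows from 250 bases before to 50 bases after these starts are shown because this gene alone separated the groups. The RefSeq gene runs on to 71167849, beyond the row, and no window at that end was searched. The window of Aqp11, a member with a lower mean, is set beside them. Sequences are from RefSeq (GRCm38.p6, the assembly of mm10), 5′ to 3′ on the strand of the gene, and 4 of the 5 members had a window. Capitals mark any match, on either strand, to the letters TATAAA of the core promoter box, to the Sp1 motif GGGCGG, to ACGTG, the core of the hypoxia response element, to TGANTCA, the motif of AP-1, or to GAANNTTC, the paired half-sites of heat shock factor.
Aqp9 start at the end of the row, chr9:71163240-71163539, minus strand: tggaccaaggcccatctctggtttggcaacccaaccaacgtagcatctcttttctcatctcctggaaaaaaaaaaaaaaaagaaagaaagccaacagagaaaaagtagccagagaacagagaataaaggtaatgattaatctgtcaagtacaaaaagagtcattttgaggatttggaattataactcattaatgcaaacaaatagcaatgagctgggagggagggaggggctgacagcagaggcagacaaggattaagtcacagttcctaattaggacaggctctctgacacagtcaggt
Aqp9 inner start, chr9:71162584-71162883, minus strand: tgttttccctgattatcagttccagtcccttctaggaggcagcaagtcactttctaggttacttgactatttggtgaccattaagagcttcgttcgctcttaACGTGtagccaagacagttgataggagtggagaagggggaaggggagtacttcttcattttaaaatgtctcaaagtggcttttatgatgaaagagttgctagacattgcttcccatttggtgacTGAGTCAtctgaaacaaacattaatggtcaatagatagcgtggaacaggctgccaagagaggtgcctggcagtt
Aqp11, chr7:97738198-97738497, minus strand: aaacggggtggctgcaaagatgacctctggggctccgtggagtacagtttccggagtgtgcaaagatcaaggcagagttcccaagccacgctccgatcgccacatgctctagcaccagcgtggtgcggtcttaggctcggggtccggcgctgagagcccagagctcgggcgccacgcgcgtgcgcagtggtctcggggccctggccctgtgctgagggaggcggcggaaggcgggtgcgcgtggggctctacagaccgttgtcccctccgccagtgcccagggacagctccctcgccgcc

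The inner Aqp9 window held ACGTG once, found in 19.6% of 32851 windows of the same length, and TGANTCA once, found in 7.81%. These matches do not overlap each other. The outer Aqp9 window and the Aqp11 window held none of the 5 motifs, of which TATAAA was in 13.6% of all windows, GGGCGG in 35.7% and GAANNTTC in 7.86%. The Aqp9 windows had 41.3% and 43.7% G and C, below the median of 52.7% over all windows, and 1 and 4 CG pairs. The Aqp11 window had 68.0% and 27 CG pairs, against a median of 7. The Aqp1 and Aqp5 windows were searched too and are not printed. The Aqp5 window held ACGTG 3 times over both strands, with 2 of the matches overlapping, and GGGCGG 3 times, and the Aqp1 window held GGGCGG once. These matches describe the letters alone.

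Aqp9 had 26, 29 and 34 counts in the sham libraries, then 42, 40 and 42 counts after ischemia/reperfusion. Scaled to the library, these were 0.523, 0.603 and 0.696 CPM and 0.865, 0.867 and 0.925 CPM. Every ischemia/reperfusion library lay above every sham library, with means of 0.607 ± 0.0863 and 0.886 ± 0.0338 CPM (SD, n = 3 each), a ratio of 1.46. The log2 fold change was 0.49 ± 0.29 (SE), with a 95% interval from −0.14 to 1.11 and an adjusted p of 0.430 (edgeR). The spread within ischemia/reperfusion, a coefficient of variation of 3.82%, was smaller than the 15.6% that counting alone gives at a mean of 41.3 counts. In sham it was 14.2% against 18.4%. The closeness of the 3 libraries is therefore no measure of precision at this depth.

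A clone row just upstream of the Aqp9 row, fantom3_1700020I22, begins 185 bases away on the same strand and covers the far end of the RefSeq gene, which runs to 71167849. It had 4, 1 and 4 counts in the sham libraries, then 1, 1 and 2 counts after ischemia/reperfusion, at or near the floor of 3 counts. Its row length is only 389 bases. Per length it had 0.0534 to 0.21 RPKM in sham, against 0.168 to 0.224 RPKM for Aqp9. After ischemia/reperfusion these were 0.0529 to 0.113 RPKM and 0.278 to 0.297 RPKM. Which bases of its span were counted is not known, so the level of the outermost part of the gene cannot be judged from it. The nearest gene rows were Aldh1a2, 52.5 kb upstream on the other strand, and Lipc, 176 kb downstream. Aldh1a2, which makes retinoic acid, differed by −0.49 ± 0.19 (log2 fold change, SE) with an adjusted p of 0.255 (edgeR), opposite in sign to Aqp9.

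Aqp9 is expressed by leukocytes as well as by brain cells, and some neutrophil markers had higher levels in ischemia/reperfusion. Markers of neutrophils and monocytes summed to 9.68, 10.0 and 6.20 CPM in the sham libraries, then 11.9, 18.8 and 19.0 CPM after ischemia/reperfusion, groups that did not overlap. Of 12 genes, 11 had a row and 8 were tested, of which 4 were higher at an unadjusted p under 0.05 (edgeR), where 8.73% of rows were, and 0 lower, with a median log2 fold change of 0.88. None of the 4 passed after adjustment in edgeR, and DESeq2 called S100a8 (adjusted p = 0.0211) and S100a9 (0.00753). Ccr2, the chemokine receptor of monocytes, had a log2 fold change of 0.03 ± 0.64 and Mmp9, a gelatinase, 0.03 ± 0.26 (SE). S100a8, a calprotectin subunit, had 2.07, 1.77 and 0.982 CPM and then 2.68, 4.01 and 4.16 CPM. Mmp8, the neutrophil collagenase, had 0.765, 0.623 and 0.266 CPM and then 0.947, 1.21 and 1.47 CPM. Csf3r, the receptor of granulocyte growth factor, had 1.59, 1.37 and 1.72 CPM and then 1.96, 2.82 and 2.95 CPM. None of the 11 was at 0 over all libraries. Aqp9 was at about the same level in ischemia/reperfusion replicate 1 as in replicate 2, whereas the summed markers were lower in replicate 1. Their part in the level of Aqp9 was not tested.

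Genes that make and use glycerol, a solute of Aqp9, had differences of either sign. Of 11 genes of glycerol and lactate handling, 10 had a row and were tested, of which 2 were lower at an unadjusted p under 0.05, where 6.90% of rows were, and 0 higher, with a median log2 fold change of −0.07. Leaving out ischemia/reperfusion replicate 2, 3 were lower, where 7.52% of rows were, and the median was −0.04. Pnpla2, the lipase that starts the release of glycerol from fat, had 26.1, 24.5 and 19.5 CPM in the sham libraries, then 18.7, 12.6 and 14.9 CPM after ischemia/reperfusion, groups that did not overlap, and an adjusted p of 0.153 in edgeR and 0.0158 in DESeq2. Gpd1l, a glycerol phosphate dehydrogenase, differed by −0.29 ± 0.10 (log2 fold change, SE), and Gpd1, its relative, −0.22 ± 0.12. Mgll, the monoglyceride lipase, had 0.01 ± 0.12. None of the list passed over all rows in edgeR, and DESeq2 called Pnpla2 alone.

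Aqp11, the intracellular aquaporin, was lower on average after ischemia and reperfusion and, with all 6 libraries, was the member with an unadjusted p under 0.05 in edgeR. Its row is on chromosome 7 from 97726379 to 97738247 (mm10, minus strand). It had 12.8, 10.8 and 13.4 CPM in the sham libraries, then 8.63, 11.9 and 9.82 CPM after ischemia/reperfusion. The groups overlapped by 1 library, ischemia/reperfusion replicate 2, which lay above sham replicate 2. Means were 12.3 ± 1.38 and 10.1 ± 1.63 CPM (SD, n = 3 each), a ratio of 0.820. The log2 fold change was −0.34 ± 0.15 (SE), with a 95% interval from −0.67 to −0.01, an unadjusted p of 0.0443 and an adjusted p of 0.309 (edgeR). Without ischemia/reperfusion replicate 2 it was −0.49, with an adjusted p of 0.192 (edgeR), and without replicate 1 it was −0.24. The unadjusted p was above 0.05 with upper-quartile scaling (0.0825), on gene-symbol rows alone (0.0872), with a mean of at least 1 CPM (0.0706) and with the replicate block (0.0598), at adjusted p-values of 0.349 to 0.452 (edgeR). It was also above 0.05 without ischemia/reperfusion replicate 1 (0.127) or 3 (0.0991), and without sham replicate 1 (0.115) or 3 (0.136) (edgeR). It was under 0.05 without replicate 2 of ischemia/reperfusion (0.00701) or of sham (0.029) (edgeR). With RLE scaling, no filter, no robust estimation, DESeq2 and limma-voom it stayed under 0.05.

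3 further rows count much of the same RNA. The clone rows fantom3_1700015P13 and fantom3_4930441N17 cover nearly the whole Aqp11 span on the same strand and had log2 fold changes of −0.32 ± 0.15 for each (SE). Their counts, 408 to 627 and 372 to 573, run just below the 419 to 655 of Aqp11, so they are repeats of the measurement and not support for it. The clone fantom3_A130042G03, which covers 5798 bases inside the gene, had 119, 125 and 121 counts in the sham libraries, then 94, 123 and 84 counts after ischemia/reperfusion, a fitted log2 difference of −0.27 ± 0.21 (SE). Clns1a, 5.58 kb away on the other strand and a chloride conductance regulator, had −0.09 ± 0.11 (SE).

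Aqp5, a water channel of gland and lung epithelium, was near the detection limit. Its row is on chromosome 15 from 99591028 to 99594829 (mm10, plus strand). It had 2, 9 and 8 counts in the sham libraries, then 28, 5 and 13 counts after ischemia/reperfusion, or 0.0403, 0.187 and 0.164 CPM and 0.577, 0.108 and 0.286 CPM. A floor of 3 counts is 0.0604 to 0.0660 CPM, and sham replicate 1 lay under it. The groups overlapped, since ischemia/reperfusion replicate 2 was below 2 of the sham libraries. The gene did not pass the low-count filter. With no filter the log2 fold change was 1.24, with an unadjusted p of 0.0755 and an adjusted p of 0.440 (edgeR). Without ischemia/reperfusion replicate 2 it passed the filter, with 1.65, an unadjusted p of 0.0273 and an adjusted p of 0.262 (edgeR). When single libraries were left out, it passed only where ischemia/reperfusion replicates 1 and 3, its highest libraries, were both kept. The filter thus favoured a positive sign, and these fits are no support for a difference. Ischemia/reperfusion replicate 1 held 28 of the 46 counts of its group.

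The gene, with 65 counts over all libraries, sits between 2 other aquaporins that had fewer. Aqp2, the vasopressin-regulated channel of the kidney, ends 6.48 kb before it and had 0 to 7 counts per library, 19 in all. Aqp6, a vesicle channel of kidney cells, starts 6.57 kb after it and had 1 to 12 counts, 31 in all. Of the 7 aquaporins outside the 5 members, all had a row, none passed the low-count filter, and the most counts over all 6 libraries were 49, for Mip, the lens channel. Aqp3, a skin glycerol channel, had 19 counts in all, Aqp7, the glycerol channel of fat, 10, Aqp8 4 and Aqp12 12. Aqp12 had 1 count in each sham library and 2, 3 and 4 in ischemia/reperfusion, most of them at or under the floor, so no ratio is given.

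Transporters that set the ionic gradients which water follows were centred near 0 as a list. Of 20 genes of ion transport and cell volume control, all had a row and 19 were tested. Of these, 0 had an unadjusted p under 0.05 (edgeR), as 15.6% of rows did in either direction. They were 14 positive and 5 negative, with a log2 median of 0.04. Slc12a2, the cotransporter NKCC1 of choroid plexus and glia, had 119, 125 and 132 CPM and then 113, 105 and 184 CPM. Lrrc8a, the required subunit of the volume-regulated anion channel, differed by 0.05 ± 0.10 (log2 fold change, SE). Nfat5, the transcription factor of the response to high salt, and Akr1b3, the aldose reductase that makes the osmolyte sorbitol, had 0.20 ± 0.11 and −0.23 ± 0.12 (SE). Of the 19, 2 were separate and higher, Nfat5 and Lrrc8d, another subunit of the anion channel, as were 14.0% of rows tested. Akr1b3 alone was separate and lower, as were 6.99%. Slc5a3, a myo-inositol importer, had 74.6, 82.9 and 89.0 CPM and then 142, 69.3 and 111 CPM. Without ischemia/reperfusion replicate 2, 2 of the list were higher at an unadjusted p under 0.05, where 7.93% of rows were, and 1 lower, where 7.52% were, with a list median of 0.09. The higher ones were Slc5a3, at a log2 fold change of 0.55, and Lrrc8d, at 0.27. The lower one was Akr1b3, at −0.29.

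Genes of cerebrospinal fluid secretion, which act beside Aqp1, had 5 positive and 5 negative members among 10, with a median of −0.02. At an unadjusted p under 0.05 (edgeR) 1 was lower, where 6.90% of rows were. The lower one was again Kcnj13. Car12, a carbonic anhydrase, had 15.9, 11.2 and 19.1 CPM in the sham libraries, then 22.4, 10.1 and 19.4 CPM after ischemia/reperfusion. Slc4a10, a sodium bicarbonate transporter that neurons also express, differed by −0.18 ± 0.10 (log2 fold change, SE). Without ischemia/reperfusion replicate 2, 2 of the list were lower, where 7.52% of rows were, and the median was 0.13. Neuron markers, for comparison, had a median of −0.15, with 2 of 8 lower at an unadjusted p under 0.05, Tubb3 and Stmn2, where 6.90% of rows were lower. Their median was −0.24 without ischemia/reperfusion replicate 2, and 5 were then lower, where 7.52% of rows were.

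**Figure D5:**
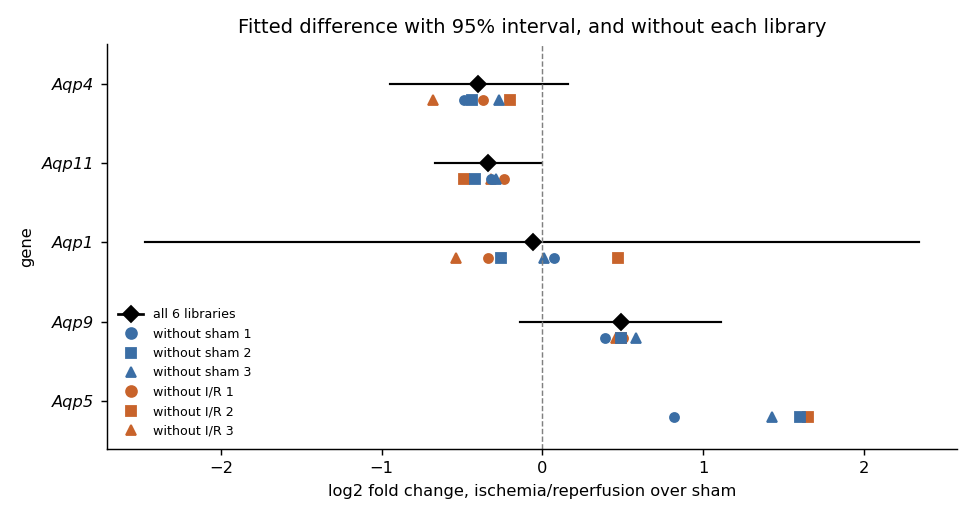
Log2 fold change of ischemia/reperfusion over sham for each aquaporin, with all 6 libraries (diamond, line for the 95% interval) and without each library in turn (coloured points, I/R for ischemia/reperfusion). Aqp1 moves from −0.54 to 0.47 with the library left out, and Aqp5 has points only where it passed the low-count filter.

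For Aqp4 and Aqp11 the q-values of the authors were under 0.05. The authors' deposited table listed Aqp4 at a log2 change of −0.34 with a q-value of 4.5e-35, and Aqp11 at −0.29 with a q-value of 0.00637, where 9.77% of its 45851 rows were lower at a q-value under 0.05. For Aqp9 the authors' deposited table gave a log2 change of 0.54 and a q-value of 0.309, for Aqp5 1.31 and 0.128, and for Aqp1 a q-value of 0.998. The directions of Aqp4, Aqp5, Aqp9 and Aqp11 were alike in that table and in the fit to the library counts. Both come from the same libraries, so like directions are no independent result. For Aqp4 and Aqp11 the q-values of the authors and the adjusted p-values of edgeR lay on opposite sides of 0.05.

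The genes with profiles most like those of the members over the 6 libraries were found by Pearson's correlation of log2 CPM among 14451 gene-symbol rows of at least 1 CPM, as a description. These values share the libraries, and a correlation above 0.9 was reached by 183 genes for Aqp1, 106 for Aqp4 and 160 for Aqp11. Nearest to Aqp1 were Slc25a51, a mitochondrial carrier, Mtf1, a metal-responsive transcription factor, and Clic6. Slc25a51 varied only from 89.5 to 106 CPM, whereas Clic6 varied from 1.19 to 25.2 CPM, a range like that of Aqp1. Nearest to Aqp4 were Idh1, the cytosolic isocitrate dehydrogenase, Lyrm5 and Ccdc107. Idh1 had 29.2, 32.2 and 36.3 CPM in the sham libraries, then 26.7, 23.0 and 32.7 CPM after ischemia/reperfusion, the same order of libraries within each group as Aqp4. Nearest to Aqp11 were Orai3, a calcium channel subunit, Cog7, a Golgi tethering protein, and Bhlhe22, a neuronal transcription factor. Orai3 had 23.7, 18.7 and 25.6 CPM and then 13.5, 20.2 and 16.5 CPM, with an adjusted p of 0.220 (edgeR).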

How the data were processed

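Per the labels' protocols, brain total RNA had its ribosomal RNA removed, libraries came from the NEBNext Ultra RNA kit, and read pairs from an Illumina HiSeq2500. Per the submitters' processing notes the build was mm10. Aligner, counter, annotation and the use of strand in counting were not given in the sources used here, so reads of overlapping rows cannot be separated. The deposited counts are raw whole numbers. The deposited RPKM values equal count per kilobase of the deposited row length and per 1e6 counts in 100% of values (relative tolerance 0.001). The authors' deposited table holds group mean RPKM, a log2 fold change, p-values and q-values from a test not given in the sources used here.

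Counts were fitted over all rows with edgeR 4.0.16 (R 4.3.3; TMM, filterByExpr, robust quasi-likelihood F test, two-sided, Benjamini-Hochberg over 40170 rows, threshold 0.05). The SE is the log2 fold change divided by the square root of F. On simulated data with 200 changed among 40170 rows, 77% of 2-fold and 100% of 4-fold changes were recovered by edgeR, for rows of at least 1 CPM. The simulation gave each row the spread typical of its level and held no outlying library. These rates therefore do not carry over to rows with a larger spread, such as Aqp1 with an SE of 0.91. Library pairs of a group differed by more than sampling noise. The members and gene lists were chosen with earlier results of these data known. Of the genes first listed, 3 are not reported here and were left out of the list counts. Named were the 5 members, the other aquaporins, overlapping and neighbouring rows, up to 3 genes of each list by smallest p with others by role or level, and the 3 genes most alike in profile (0.5 CPM added before log2). Genes named by role were chosen after their values were seen. The settings varied were the scaling (RLE or upper-quartile), the filter (none or a mean of 1 CPM), the tool (DESeq2 1.42.0, limma-voom from limma 3.58.1), no robust estimation, gene-symbol rows alone, the replicate number as a block, and leaving out each library. List counts without ischemia/reperfusion replicate 2 were added after seeing the data.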

Additional observations from a re-analysis of the deposited data

How the results depend on the processing

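The call rule depends strongly on the setting, while no member reached an adjusted p of 0.05 in any alternative run. The count of rows called over the whole table was 1 and became 584 with DESeq2, 77 with no low-count filter, 4 without robust estimation, 4 with limma-voom, 2 with upper-quartile factors, 0 on gene-symbol rows alone, 0 with a mean of at least 1 CPM and 0 with the replicate block, and ranged from 0 to 1057 when each library was left out. The cause was not tested. Leaving out ischemia/reperfusion replicate 1 gave the 1057, replicate 2 of that group 43, and sham replicate 2 gave 34.

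Aqp4, Aqp9 and Aqp11 kept their direction in every alternative in which they were tested. When each library was left out, the log2 fold change ran from −0.68 to −0.20 for Aqp4, −0.49 to −0.24 for Aqp11, 0.39 to 0.58 for Aqp9 and, in the 4 fits it entered, 0.82 to 1.65 for Aqp5. Those 4 fits all kept ischemia/reperfusion replicates 1 and 3, where Aqp5 was highest, so the filter favoured its positive sign. For Aqp1 it ran from −0.54 to 0.47 and turned positive without ischemia/reperfusion replicate 2 (0.47), sham replicate 1 (0.07) and sham replicate 3 (0.01), while limma-voom gave −0.76. With a mean of at least 1 CPM Aqp9 was not tested. The lowest adjusted p over the alternatives was 0.252 for Aqp4, 0.192 for Aqp11, 0.335 for Aqp1, 0.399 for Aqp9 and 0.262 for Aqp5. Replicate numbers are shared by the groups, but deviations of same-numbered libraries correlated at −0.11, 0.05 and 0.21, so the numbers were not taken as pairs. With the replicate block the log2 fold change was −0.43 for Aqp4 (adjusted p = 0.252, edgeR), −0.35 for Aqp11, −0.49 for Aqp1 and 0.49 for Aqp9. Not every sham library correlated best with its own number. Depth limits Aqp5 and Aqp9, with 65 and 213 counts over all libraries.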
